A study of Xenopus laevis with 30 samples.

Results

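The hox genes of Xenopus laevis were followed along the head-to-tail axis of the tadpole central nervous system. They were taken as every row of the raw count table named hoxa, hoxb, hoxc or hoxd with a paralogue number and the ending .L or .S, which gave 53 rows of 49109. The 53 rows stand for 34 gene symbols, 19 of them with both copies, 8 with the .L row only and 7 with the .S row only. Clusters a, b, c and d held 16, 11, 13 and 13 rows. Paralogue numbers 1 to 5 held 23 rows and numbers 6 to 13 held 30.

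Hox genes encode homeodomain transcription factors that sit in clusters on the chromosome. The genes at one end of a cluster (low paralogue numbers) are used from the hindbrain backwards and those at the other end (high numbers) only further towards the tail, an order called collinearity, so that the set of hox genes in a cell marks its position along the body. In the hindbrain they give the segments (rhombomeres) their identity, and in the spinal cord they set the classes of motor neurons at each level. The forebrain and midbrain are classically free of hox transcripts. X. laevis has a doubled genome. A gene can thus be present on a longer and on a shorter version of the same chromosome, and its copies carry the endings .L and .S.

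RNA of albino tadpoles of both sexes was sequenced at the stages of Nieuwkoop and Faber. At stage 46 there were 3 libraries each of forebrain (its subcortical part), midbrain, hindbrain (with the rhombic lip) and spinal cord, and at stage 49 there were 2 libraries of each of these regions. The midbrain was also sampled at stages 44, 55 and 61 (3 libraries each) and 66 (1 library). The labels name no treatment or transgene in any group and do not say how many animals or clutches went into a library, so p-values measure the spread between these libraries. The labels split no region into parts along the axis, so a limit inside the hindbrain or the cord could not be seen. A low level from few cells and a low level per cell cannot be told apart.

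Total counts ran from 1762544 to 11016124 a library. At a depth thinned to 1762544 counts, 10 libraries stood apart with 42190 to 46638 genes detected, against 27086 to 32368 in the other 20. These 10 were replicate 3 of forebrain, hindbrain and spinal cord at stage 46 and all stage 49 libraries but midbrain replicate 1, and they held between 1762544 and 4937973 counts. Without thinning, 51 to 53 of the 53 hox rows had a count in these 10 libraries, whatever the region. In replicates 1 and 2 of stage 46 these were 21 and 11 in the forebrain, 32 and 30 in the hindbrain and 52 and 53 in the cord. The region labels of stage 46 were checked in part on other genes. The summed level of 12 midbrain marker rows (en1, en2, pax7 and others) was 643 to 816 CPM in stage 46 midbrain and 50.9 to 80.6 CPM in the forebrain, and that of 5 spinal cord marker rows (mnx1, isl1, chat and others) was 257 to 452 CPM in the cord against 58.1 to 93.8 CPM in the hindbrain. Between hindbrain and midbrain these lists separated less. By the test and threshold given below, 0 of 6 hindbrain marker rows were higher in the hindbrain (median log2 fold change 3.58). Of the 12 midbrain rows 2 were lower there (median -1.16), and 7 were higher in the hindbrain than in the forebrain. CPM is the usual read count scaled to library size, here with the trimmed mean of M values (TMM). It is not per transcript length, so levels are compared here between samples. Sums, shares and rankings over rows are of reads and depend on transcript length too.

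The rows of numbers 1 to 5 summed to 415, 306 and 297 CPM in the 3 hindbrain libraries and to 688, 662 and 410 CPM in the 3 spinal cord libraries. In the midbrain the same sum was 3.47, 2.27 and 1.66 CPM, so that every hindbrain library was above every midbrain library. The rows of numbers 6 to 13 summed to 717, 777 and 465 CPM in the cord. In the hindbrain they summed to 6.54 and 3.09 CPM in replicates 1 and 2 and to 73.9 CPM in replicate 3, and in the midbrain to 1.27, 0.758 and 0.333 CPM. The forebrain was at 3.98, 1.39 and 80.3 CPM for numbers 6 to 13, a range that overlapped the hindbrain. For numbers 1 to 5 it was at 3.98, 1.01 and 91.9 CPM.

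**Figure D1:**
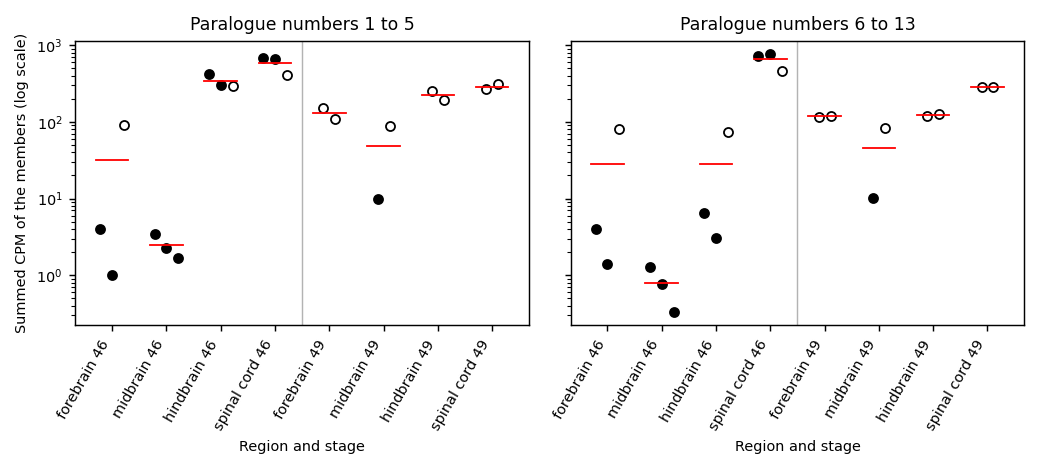
Summed level of the hox rows of paralogue numbers 1 to 5 (left) and 6 to 13 (right) in each library, in CPM on a log axis, by region and stage. Points are libraries, open points are those with many genes detected, and red lines are group means; at stage 46 the rows of numbers 6 to 13 are at 717, 777 and 465 CPM in the spinal cord and at 3.09 to 73.9 CPM in the hindbrain.

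In replicates 1 and 2 the mean sum of numbers 6 to 13 was 155 times as high in the cord as in the hindbrain, and that of numbers 1 to 5 was 1.87 times as high. In replicate 3 these ratios were 6.29 and 1.38. Rows of numbers 1 to 5 made 98.4% of the hox counts of hindbrain replicate 1 (95% exact interval 97.9 to 98.9%), 99.0% of replicate 2 (98.5 to 99.4%) and 80.1% of replicate 3 (78.0 to 82.0%). In the cord they made 49.0%, 46.0% and 46.8%. Intervals cover counting error only. Forebrain replicates 1 and 2 held 46 and 19 hox counts in all and replicate 3 held 731, of which 53.4% (49.7 to 57.0%) were of numbers 1 to 5. In the forebrain library with many genes detected the low and the high numbers were thus close to an even split, and in each hindbrain library the low numbers made most of the counts.

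The sums by paralogue number showed the same division in replicates 1 and 2. Number 3 summed to 270 and 204 CPM in the hindbrain and 441 and 417 CPM in the cord, number 4 to 64.9 and 41.7 against 121 and 119 CPM, and number 5 to 44.2 and 34.1 against 103 and 99.6 CPM. Number 6 summed to 1.77 and 1.73 CPM in the hindbrain and 88.8 and 76.5 CPM in the cord, and number 9 to 1.41 and 0.866 against 226 and 265 CPM. Numbers 8 and 13 had no count in these hindbrain libraries and summed to 29.5 and 45.5 CPM and to 122 and 92.2 CPM in the cord. All 4 clusters had RNA in both regions. Over the 3 libraries cluster a summed to 41.0 to 66.6 CPM in the hindbrain and 191 to 290.4 CPM in the cord, cluster b to 88.8 to 143 and 220.3 to 362, cluster c to 55.1 to 76.8 and 225 to 398, and cluster d to 120 to 148 and 240 to 429 CPM.

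A front limit was set by level: the most anterior region in which a row reached 1 CPM in every library, with every region behind it also at or above that level. At stage 46 no row had its limit in the forebrain or the midbrain, 18 had it at the hindbrain, 33 at the spinal cord and 2 had none. All 18 rows with a hindbrain limit were of numbers 1 to 5. Of the 30 rows of numbers 6 to 13, 29 had a spinal cord limit and the other, hoxa13.S, had none. The counts were the same without replicate 3 of forebrain, hindbrain and cord. For numbers 6 to 13 this could not give a hindbrain limit, since each row was under 1 CPM in hindbrain replicate 1 or 2. By the median of the libraries 26 rows had a hindbrain limit and 25 a cord limit. With the level set at 10% of the highest region mean these were 28 and 23, and hoxa7.S, hoxd8.S, hoxd10.S, hoxd11.L, hoxa13.L, hoxa13.S and hoxd13.L then had a hindbrain limit. By that rule each of these named rows had a cord limit without replicate 3 of forebrain, hindbrain and cord.

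**Figure D2:**
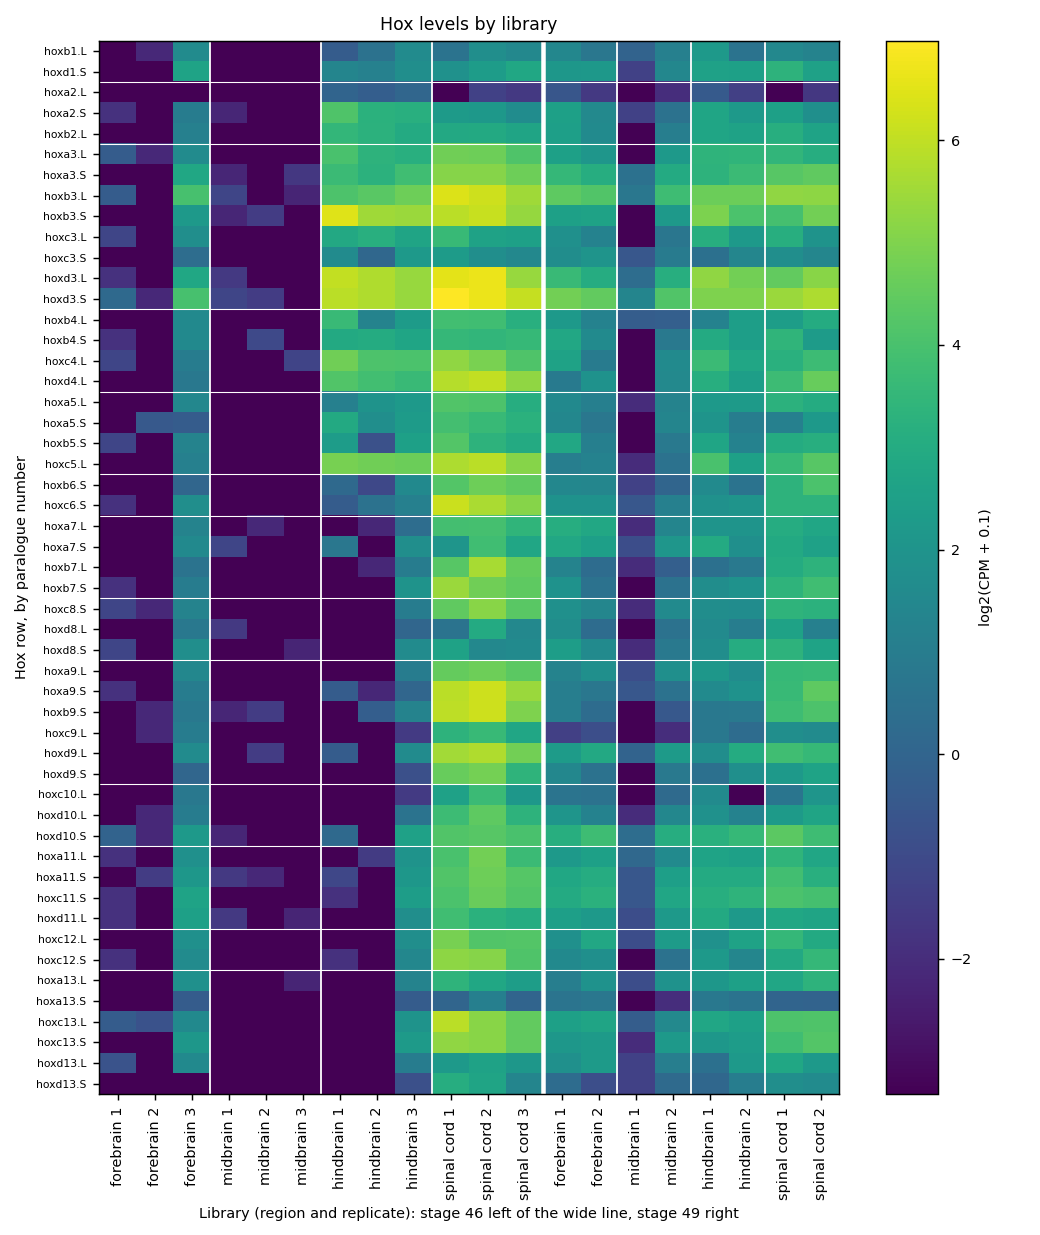
Level of 51 hox rows (vertical, by paralogue number, thin lines between numbers) in the 20 libraries of stages 46 and 49 (horizontal), as log2 of CPM + 0.1 (the colour scale). At stage 46 the rows of numbers 1 to 5 are bright in hindbrain and cord and those of numbers 6 to 13 in the cord, while replicate 3 of forebrain and hindbrain and 7 of the 8 stage 49 libraries show a level in nearly every row.

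Among the rows that went against the order, hoxb1.L, hoxc3.S and hoxb5.S had a limit at the cord. Each of them missed 1 CPM in 1 hindbrain library. hoxb1.L, in other vertebrates a marker of rhombomere 4, was at 0.707, 1.36 and 3.07 CPM in the hindbrain. hoxb5.S was at 5.13, 0.495 and 5.67 CPM in the hindbrain against 18.4, 10.1 and 7.86 CPM in the cord, with no overlap. hoxc3.S was at 3.01, 0.990 and 4.49 CPM in the hindbrain and 4.99, 3.26 and 2.69 CPM in the cord, which overlap. hoxa2.L stayed under 1 CPM in every library of both stages and had no limit.

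The step from midbrain to hindbrain was tested with edgeR's quasi-likelihood F test on the 12 stage 46 libraries. Of 51 hox rows tested, 13 were higher in the hindbrain and none lower (adjusted p below 0.05 over 34485 genes and a log2 fold change above 2), where 0.548% of all genes tested were called higher. All 13 were of numbers 1 to 5: hoxa2.S, hoxb2.L, hoxa3.L, hoxb3.S, hoxc3.L, hoxd3.L, hoxd3.S, hoxb4.S, hoxc4.L, hoxd4.L, hoxa5.S, hoxb5.S and hoxc5.L. The median log2 fold change was 7.74 over the 22 rows tested of numbers 1 to 5 and 4.87 over the 29 of numbers 6 to 13, against 0.16 over all genes. With groups at 3 counts and under set to that floor (3 counts over the group), the medians were 6.06 and 2.73. These were taken over all 23 rows of numbers 1 to 5. Of the 30 rows of numbers 6 to 13, the 5 at or under the floor in both regions were left out. Without replicate 3 of forebrain, hindbrain and cord, 21 rows were higher (1.35% of all genes): 19 of 22 of numbers 1 to 5, and of the 29 of numbers 6 to 13 hoxb6.S and hoxc6.S. The medians as fitted were then 7.71 for numbers 1 to 5 and 0 for numbers 6 to 13. Of the 30 rows of numbers 6 to 13, 23 were then at 3 counts or under in both regions. With a single library left out the number of rows called higher was 22 when that was forebrain replicate 3, 8 for midbrain replicate 1 and 7 for midbrain replicate 3. The share of all genes was not taken for these fits. Every hindbrain library was above every midbrain library for 22 of 23 rows of numbers 1 to 5 and 3 of 30 of numbers 6 to 13, where 5.84% of all rows with a count were. Against the forebrain the hindbrain was above in 15 of 23 and 0 of 30 (4.01%), and the test called 8 rows higher (0.812%), and 8 with the replicate number as a block over the 12 libraries (0.896%). Rows of other tissues were also measured here. The summed level of 8 skeletal muscle rows was 84.9 to 310 CPM in the hindbrain and 12.8 to 30.8 CPM in the midbrain, with 3 of the 8 called higher in the hindbrain, and that of 6 neural crest and Schwann cell rows was 74.4 to 77.3 CPM against 19.2 to 21.98 CPM, with 2 of the 6 called higher. None of the muscle rows and 1 of the neural crest and Schwann cell rows was at 0 in the midbrain. Their part in the hox results was not tested.

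Number 2 is the group with the most anterior hox limit in the hindbrain of other vertebrates, where Hoxa2 is the only hox gene of rhombomere 2. hoxa2.S was at 17.5, 9.40 and 8.98 CPM in the hindbrain and at 0.116, 0 and 0 CPM in the midbrain, and the groups did not overlap. It was called (adjusted p = 0.00314), with a ratio of 303 to the single midbrain count (95% counting interval 53.8 to 12030). hoxb2.L was at 11.1, 9.65 and 7.80 CPM in the hindbrain and had no count in the midbrain, at least 82.6-fold higher in the hindbrain (adjusted p = 0.00952). Of the 13 paralogue numbers, only number 2 had a median log2 fold change of cord against hindbrain below 0, with hoxa2.S at 4.84, 4.44 and 3.14 CPM in the cord. Every hindbrain library was above every cord library for 3 rows of numbers 1 to 5 and none of numbers 6 to 13, where 4.29% of all rows with a count did so. The test did not call hoxa2.S (log2 fold change -1.55, SE 0.90, adjusted p = 0.517).

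Numbers 3 to 5 are used in the posterior hindbrain and on into the cord, and number 5 acts in cervical motor neurons in the mouse. hoxd3.S was at 59.9, 54.1 and 41.3 CPM in the hindbrain and at 126, 102 and 67.8 CPM in the cord, and at 0.347, 0.253 and 0 CPM in the midbrain. The forebrain libraries were at 1.04, 0.126 and 15.8 CPM, the last being the library with many genes detected. The step from the midbrain was called (log2 fold change 7.99, SE 1.49, adjusted p = 0.0357) and the step to the cord was not (0.90, SE 0.89, adjusted p = 0.924). hoxd4.L was at 17.9, 14.2 and 12.5 CPM in the hindbrain and at 56.5, 64.6 and 38.8 CPM in the cord, with no count in the midbrain. The hindbrain was at least 128-fold above it. hoxc5.L was at 29.3, 26.5 and 25.3 CPM in the hindbrain and at 52.3, 60.2 and 34.1 CPM in the cord, again with no count in the midbrain (at least 231-fold). For hoxd4.L and hoxc5.L every cord library was above every hindbrain library, but neither passed the threshold between these regions (adjusted p = 0.0906 and 0.684).

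In number 1, hoxd1.S was at 2.48, 2.23 and 3.31 CPM in the hindbrain, at 3.59, 5.04 and 6.96 CPM in the cord and had no count in the midbrain. It was not called between midbrain and hindbrain over the 12 libraries (adjusted p = 0.117) and was called without the replicate 3 libraries (adjusted p = 0.00455). Its forebrain libraries were at 0, 0 and 6.13 CPM. The last, the library with many genes detected, was above every hindbrain library.

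Between hindbrain and spinal cord at stage 46 the rows called were of the high numbers. Of 51 rows tested, 6 were higher in the cord and none lower, where 0.658% of all genes were called higher: hoxb6.S, hoxc6.S, hoxa9.S, hoxb9.S, hoxc9.L and hoxd9.S. The median log2 fold change was 4.94 over the 29 tested rows of numbers 6 to 13 and 0.84 over the 22 of numbers 1 to 5. It was -0.06 over all genes. With low groups at the floor it was 4.80 over all 30 rows of numbers 6 to 13. Every cord library was above every hindbrain library for 29 of 30 rows of numbers 6 to 13 and for 12 of 23 of numbers 1 to 5, while 5.68% of all rows with a count did so. Without replicate 3 of forebrain, hindbrain and cord, 30 rows were higher (2.39% of all genes): 28 of 29 of numbers 6 to 13, all but hoxa7.S, and of numbers 1 to 5 hoxb3.L and hoxa5.L. The medians were then 8.56 and 0.93 as fitted, and 6.43 and 0.89 at the floor over all 30 and 23 rows. Leaving out 1 library gave 19 rows without hindbrain replicate 3, 14 without forebrain replicate 3, 3 without hindbrain replicate 2 or cord replicate 1 and 2 without hindbrain replicate 1 or cord replicate 2. In hindbrain and cord every same-numbered pair of libraries deviated together (r 0.43 to 0.83). Replicate 3 had many genes detected in both regions, so these r values cannot tell shared animals from that property. With the replicate number as a block in these 6 libraries 19 rows were higher (1.38%). With that block over all 12 libraries 14 rows were higher. For this block and for the fits with 1 library left out, the share of all genes was not taken. These counts show only how the calls vary. The part of the number of genes detected in these results was not tested. Across the longer steps, 16 rows were higher in the cord than in the forebrain (2.12%), or 30 with the replicate number as a block over the 12 libraries (2.57%), and 40 higher than in the midbrain (2.69%).

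**Figure D3:**
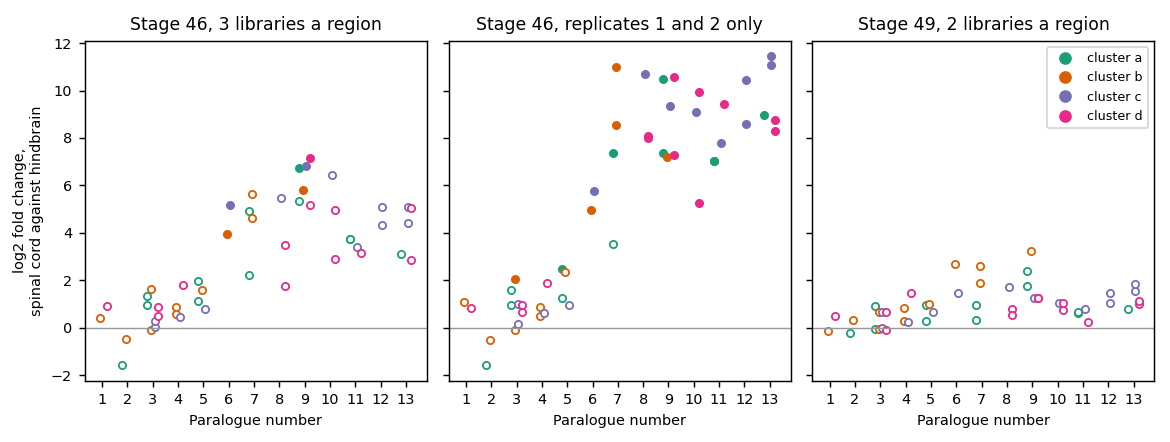
Log2 fold change of the spinal cord against the hindbrain (vertical) by paralogue number (horizontal) for 49 hox rows tested, coloured by cluster, at stage 46 with 3 libraries a region, at stage 46 with replicates 1 and 2, and at stage 49. Filled points passed the threshold (6, 30 and 0 rows); the highest fitted values of the middle panel have a hindbrain at or near 0 and depend on the prior count, and the step between numbers 5 and 6 is seen in the first and second panels.

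By paralogue number, the medians of the log2 fold change of cord against hindbrain showed a step between numbers 5 and 6. The medians of numbers 1, 3, 4 and 5 were 0.69, 0.71, 0.74 and 1.38, that of number 2 was the mean of -1.55 and -0.45, and those of numbers 6 to 13 lay between 3.503 and 6.27, with the highest at number 9. Across the 51 rows Spearman's rho between number and log2 fold change was 0.74 (Pearson's r 0.74), and 0.84 without the replicate 3 libraries. Rows share libraries and cluster, so this is a description without a test.

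Number 6 marks the brachial cord in other vertebrates and held both rows of the high numbers that were called above the midbrain without the replicate 3 libraries. hoxc6.S was at 0.707, 1.36 and 2.13 CPM in the hindbrain and at 70.4, 50.2 and 34.6 CPM in the cord (log2 fold change 5.19, SE 1.01, adjusted p = 0.0278). It had no count in the midbrain and was at 0.173, 0 and 3.30 CPM in the forebrain. hoxb6.S had 6 and 3 counts in hindbrain replicates 1 and 2 and was also called in the cord (3.95, SE 0.96, adjusted p = 0.0352). In those 2 hindbrain libraries 17 of the 30 rows of numbers 6 to 13 had no count, 6 had 1 to 3 counts over both and 7 had more.

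Numbers 7 and 8 act in the brachial and anterior trunk cord, and Hoxc8 in motor neuron pools of the mouse. hoxb7.S was at 0, 0 and 3.78 CPM in the hindbrain and at 42.6, 26.5 and 21.1 CPM in the cord, at least 157-fold higher in replicates 1 and 2. hoxc8.S was at 0, 0 and 1.89 CPM against 22.2, 35.0 and 20.2 CPM, at least 132-fold in replicates 1 and 2. Neither passed the threshold over the 12 libraries (adjusted p = 0.226 and 0.0799), and both did without the replicate 3 libraries (9.72e-07 and 1.55e-06).

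Number 9, whose Hoxc9 sets the thoracic motor columns of the mouse, gave 4 of the 6 calls. hoxa9.S was at 0.707, 0.124 and 0.945 CPM in the hindbrain and at 59.9, 72.6 and 43.3 CPM in the cord (log2 fold change 6.73, SE 0.86, adjusted p = 0.00174). The midbrain libraries had no count, and the forebrain was at 0.173, 0 and 1.88 CPM. Hindbrain replicate 3 was thus under 1 CPM too. hoxd9.S was at 0, 0 and 0.473 CPM in the hindbrain against 23.7, 28.0 and 10.3 CPM in the cord (adjusted p = 0.00909), a ratio of 197 to 2 hindbrain counts (95% counting interval 54.3 to 1636).

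Numbers 10 to 13 belong to the lumbar, sacral and tail levels, and Hox13 genes act at the end of the axis. hoxd10.S was at 1.06, 0 and 5.91 CPM in the hindbrain and at 18.3, 19.4 and 16.2 CPM in the cord. hoxa11.S was at 0.354, 0 and 4.25 CPM against 18.1, 26.2 and 18.9 CPM. hoxc12.S was at 0.177, 0 and 2.60 CPM against 37.8, 34.1 and 17.5 CPM, and hoxc13.L at 0, 0 and 3.78 CPM against 59.5, 35.7 and 22.2 CPM (at least 217-fold in replicates 1 and 2). For these 4 rows every cord library was above every hindbrain library. None passed the threshold over the 12 libraries (adjusted p = 0.344, 0.278, 0.169 and 0.117) and each did without the replicate 3 libraries (at most 0.000499). hoxa13.S, not tested for its few counts, had 24 counts in the cord and 3 in the hindbrain, a ratio of 8.16 (95% counting interval 2.48 to 42.4).

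Rows of other tissues were compared between cord and hindbrain too. The summed level of 5 cartilage and notochord rows (col2a1, sox9 and others) was 1814 to 2424 CPM in the stage 46 cord and 236 to 492 CPM in the hindbrain. That of 8 skeletal muscle rows was 226 to 551 CPM against 84.9 to 310 CPM, and that of 5 epidermis rows 361 to 570 CPM against 91.4 to 229 CPM. The groups overlapped for muscle, and the test called 1 of 5, 0 of 8 and 1 of 5 rows of these lists higher in the cord. No row of these lists was at 0 in either region. Their part in the hox levels of the cord was not tested.

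Between forebrain and midbrain at stage 46, 1 of 51 rows was lower in the midbrain, where 0.47% of all genes were called lower. It was hoxa3.L (adjusted p = 0.0446), which had no count in the midbrain and 4 and 1 counts in forebrain replicates 1 and 2. Forebrain replicate 3 was at 3.06 CPM. The median log2 fold change over the 51 rows was -4.94, against -0.18 over all genes. At an unadjusted p below 0.05 by this test there were 28 of the 51 rows and 13.9% of all genes. Without the replicate 3 libraries the called row was hoxc13.L (0.985% of all genes called lower), with 4 and 4 counts in the forebrain and 0 in the midbrain. The median log2 fold change was then 0 over the 51 rows and 0 over all genes. In that fit 7 of the 51 rows and 18.3% of all genes had an unadjusted p below 0.05. Leaving out 1 library gave 0 to 2 rows. DESeq2 called 10 rows lower in the midbrain with all 12 libraries. The share of all genes was not taken for this fit or for those with 1 library left out. The counts of rows called are thus not read as a result about hox rows. The part of forebrain replicate 3 in the median was not tested.

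At stage 49 the rows of numbers 6 to 13 summed to 283 and 287 CPM in the cord, 120 and 127 CPM in the hindbrain, 10.1 and 82.4 CPM in the midbrain and 117 and 121 CPM in the forebrain. Forebrain and hindbrain thus lay side by side, and the midbrain libraries lay apart from each other, replicate 1 being the stage 49 library without many genes detected. The rows of numbers 1 to 5 summed to 270 and 309 CPM in the cord, 252 and 192 CPM in the hindbrain, 9.80 and 88.6 CPM in the midbrain and 152 and 110 CPM in the forebrain. The hindbrain was above the forebrain in both its libraries for numbers 1 to 5. The cord was above the hindbrain in both its libraries for numbers 6 to 13 and for numbers 1 to 5 alike.

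No row passed the threshold between neighbouring regions at stage 49 by edgeR over 8 libraries. Of all genes, 0.146% passed it in either direction between midbrain and forebrain, 0.0505% between hindbrain and midbrain and 0.0112% between cord and hindbrain. At an unadjusted p below 0.05 there were, in the same order, 6, 21 and 5 of the 51 hox rows and 7.39%, 7.94% and 2.34% of all genes. DESeq2 called 0, 2 and 0, and the share of all genes was not taken for it. The median log2 fold change of the cord against the hindbrain was 1.15 for numbers 6 to 13 and 0.51 for numbers 1 to 5, and 0.01 over all genes. Spearman's rho with the number was 0.56 (Pearson's r 0.44), and rho was 0.29 without hindbrain replicate 1. Without midbrain replicate 2, so with a lone midbrain library taken to vary like the other groups, 48 rows were higher in the hindbrain than in the midbrain, where 31.1% of all genes were, and 47 lower in the midbrain than in the forebrain, where 30.6% were. Between cord and midbrain 4 rows were higher (0.112%), all of numbers 6 to 13.

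At stage 49 the front limit by level lay at the forebrain for 6 rows, at the hindbrain for 43, at the cord for 2 and nowhere for 2. The 6 rows were hoxa3.S, hoxb3.L, hoxd3.L, hoxd3.S, hoxd10.S and hoxa11.L. hoxd3.S was at 27.6 and 22.7 CPM in the forebrain, 2.49 and 17.9 CPM in the midbrain, 31.5 and 31.1 CPM in the hindbrain and 43.0 and 52.8 CPM in the cord. hoxd10.S was at 8.63 and 13.5, 1.17 and 8.35, 9.09 and 11.9, and 20.9 and 13.5 CPM in the same order. The cord overlapped the forebrain for hoxd10.S but not for hoxd3.S. hoxb3.L was at 21.3 and 18.1 CPM in the forebrain and 37.9 and 37.5 CPM in the cord, hoxa3.S at 11.5 and 8.49 against 19.4 and 22.1 CPM, hoxd3.L at 12.4 and 8.26 against 22.4 and 35.4 CPM, and hoxa11.L at 4.60 and 5.74 against 10.6 and 6.65 CPM. Of the 30 rows of numbers 6 to 13, 27 had a limit at the hindbrain or further forward. The limits rest on midbrain replicate 1: without it 44 rows had a forebrain limit. All stage 49 forebrain, hindbrain and cord libraries had many genes detected. In them 1 count was 0.215 to 0.325 CPM, against 0.111 to 0.177 CPM in the stage 46 libraries without many genes. For 13 forebrain marker rows the median log2 fold change of cord against forebrain was -5.13 at stage 46 and -2.12 at stage 49. The limits of both stages are thus not read as a forward shift.

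Of these 27 rows, the 8 with the highest mean level at stage 49 were hoxd10.S, hoxc11.S, hoxc13.L, hoxa11.S, hoxc13.S, hoxd9.L, hoxa9.S and hoxc12.L. hoxc11.S was at 8.77 and 10.2 CPM in the hindbrain and 16.4 and 15.2 CPM in the cord, and hoxc13.L at 6.82 and 5.66 against 16.96 and 17.4 CPM. hoxa11.S was at 7.79 and 7.64 against 14.5 and 9.01 CPM, and hoxc13.S at 4.22 and 5.10 against 13.9 and 18.5 CPM. In these rows the cord was above the hindbrain in every library. hoxd9.L was at 3.25 and 7.93 against 13.9 and 11.8 CPM, hoxc12.L at 3.57 and 5.94 against 11.5 and 7.51 CPM, and hoxa9.S at 2.92 and 3.68 against 12.1 and 21.2 CPM. hoxa9.S was not called (log2 fold change 2.41, SE 0.64, unadjusted p = 0.00352), and its forebrain libraries were at 2.01 and 1.61 CPM.

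Between the stages, no hox row passed the threshold in the hindbrain, in the cord or in the difference between them, by edgeR over the 20 libraries of both stages (52 rows of 42559 genes tested) or by DESeq2. Of all genes, 0.313%, 2.54% and 0.0728% passed it in either direction. For the difference between the regions the threshold was an adjusted p below 0.05 at any fold change. At an unadjusted p below 0.05 there were 4, 3 and 6 of the 52 hox rows and 18.8%, 25.6% and 6.22% of all genes. With the replicate number as a block 20 rows were higher in the stage 49 hindbrain (30.6% of all genes called higher), all of numbers 7 to 13, and 1 row, hoxc6.S, was lower in the stage 49 cord (3.13% called lower); the numbers did not pair the libraries at stage 49. The median change from stage 46 to 49 in the hindbrain was 2.39 on the log2 scale for numbers 6 to 13 and -0.37 for numbers 1 to 5, against 0.49 over all genes. In the cord it was -1.12 and -0.71, against 0.42. Leaving out replicate 3 of forebrain, hindbrain and cord at stage 46 gave 27 rows higher in the stage 49 hindbrain, all of numbers 6 to 13, and leaving out hindbrain replicate 3 alone gave 14. In that first fit 31.8% of all genes were called higher, and for the second the share was not taken. The difference between the regions was then smaller at stage 49 for 20 rows (0.752% of all genes called lower), and 3 rows were lower in the stage 49 cord (3.35%): hoxc6.S, hoxb9.S and hoxd9.S. The stage and the number of genes detected cannot be told apart in the hindbrain and the cord, since every stage 49 library of these regions had many genes detected. Among libraries with many genes detected, the rows of numbers 6 to 13 summed to 73.9 CPM in the hindbrain at stage 46 and 120 and 127 CPM at stage 49, and in the cord to 465 CPM and to 283 and 287 CPM.

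The .L and .S rows of the 19 genes with both copies were compared within each of the 10 hindbrain and cord libraries. The difference of log2 CPM (prior count 2) was tested with limma over 6262 gene pairs. It is a ratio of reads and not per length. Of the 47 rows matched by symbol to RefSeq gene models, 21 overlapped another gene model, hoxa3.L with hoxa5.L and hoxd3.L with hoxd4.L among them; how reads of both, or reads that fit both copies, were assigned is not given in the sources used here. The .L row was higher for hoxc3, hoxd9 and hoxa13, 3 of 19 pairs, where 18.7% of all pairs were so called (adjusted p below 0.05 and a mean difference above 1). The .S row was higher for hoxa2 and hoxd10, 2 of 19, where 10.4% were. Both counts lay near the shares over all pairs and are not read as a result about hox copies as a set. At an unadjusted p below 0.05 there were 8 of the 19 hox pairs and 68.7% of all pairs. The median difference was -0.21 over the hox pairs and 0.18 over all pairs. hoxa11.S matched a RefSeq gene model of the v10.1 assembly on chromosome 6L, a longer version, so the rows of hoxa11 may not be an .L and .S pair, and hoxa11 was not among the pairs called.

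**Figure D4:**
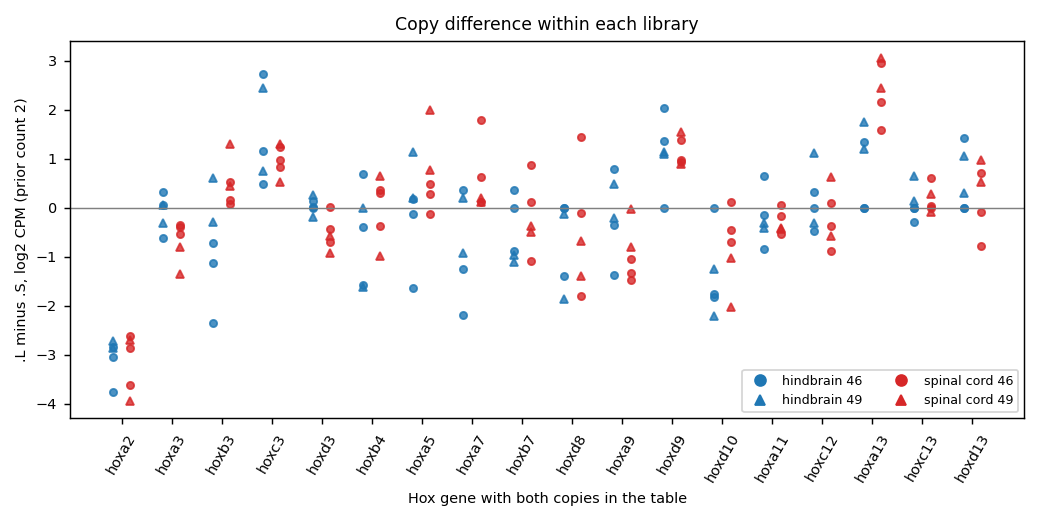
Difference between the .L and the .S row in log2 CPM (vertical) for 18 hox genes with both copies (horizontal) in 10 libraries, blue for hindbrain and red for spinal cord, circles for stage 46 and triangles for stage 49. hoxa2 lies below -2 in every library and the cord points of hoxa13 above 1; for the high numbers the stage 46 hindbrain points at 0 have no count in either row.

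hoxa2 had the largest difference of the 19. hoxa2.S was at 17.5, 9.40 and 8.98 CPM in the stage 46 hindbrain where hoxa2.L was at 0.884, 0.742 and 0.945 CPM, and the difference over the 4 groups was -3.09 (SE 0.23, adjusted p = 3.14e-08). The .S row was higher in all 10 libraries. hoxa13.L was at 10.1, 6.96 and 5.16 CPM in the stage 46 cord and hoxa13.S at 0.936, 2.07 and 0.898 CPM (1.72, SE 0.24, adjusted p = 2.09e-05). hoxd9.L was at 47.3, 53.5 and 27.4 CPM in the stage 46 cord and hoxd9.S at 23.7, 28.0 and 10.3 CPM (1.14, SE 0.19, adjusted p = 0.00012). hoxc3.L was at 7.25, 9.03 and 6.38 CPM in the stage 46 hindbrain against 3.01, 0.990 and 4.49 CPM for hoxc3.S (1.24, SE 0.27, adjusted p = 0.000888). hoxd10.S was at 18.3, 19.4 and 16.2 CPM in the stage 46 cord against 13.1, 21.04 and 9.88 CPM for hoxd10.L, which overlap (-1.20 over the 4 groups, SE 0.23, adjusted p = 0.000316). Its mean difference was -0.35 in the stage 46 cord and -1.19 in the stage 46 hindbrain. Hindbrain replicate 2 had no count of either row. At stage 49 the difference was -1.73 in the hindbrain and -1.53 in the cord (hoxd10.L at 4.85 and 6.44 CPM against 20.9 and 13.5 CPM). With only replicates 1 and 2 of stage 46, hoxa13, hoxd9 and hoxd10 were no longer called. Copies shared their front limit at stage 46 in 15 of 19 pairs. The exceptions included hoxa2, hoxc3 and hoxa13, each with a row under 1 CPM in at least 1 library. Of all rows of numbers 6 to 13, 29 of 30 had a cord limit, and 18 of 23 of numbers 1 to 5 a hindbrain limit. Most rows of like number thus shared a limit, so the count of pairs is not read as a result about copies.

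The copy ratio did not differ between cord and hindbrain at an adjusted p below 0.05 in any of the 19 pairs, where 0.415% of all pairs did. No threshold on the size of the difference was set here. At an unadjusted p below 0.05 there were 5 of the 19, against 7.92% of all pairs: hoxa3, hoxb3, hoxd3, hoxa7 and hoxa13. For hoxa13 neither row had a count in hindbrain replicates 1 and 2 of stage 46, so the prior count set those differences at 0. In the same libraries hoxa7.L was at 0 and 0.124 CPM and hoxa7.S at 1.59 and 0 CPM. The pair with the lowest p among the 5 was hoxb3, a gene of rhombomeres 5 and 6 in other vertebrates. It is named here for its low p, after its values were seen. hoxb3.S was at 88.0, 45.4 and 43.0 CPM and hoxb3.L at 16.97, 20.4 and 26.0 CPM in the stage 46 hindbrain, so the .S row was higher in each library. In the cord hoxb3.S was at 59.3, 69.04 and 40.6 CPM and hoxb3.L at 85.4, 72.6 and 45.1 CPM. In the stage 49 hindbrain neither row was higher in both libraries, with hoxb3.S at 30.5 and 16.7 CPM and hoxb3.L at 25.0 and 25.5 CPM, and in the cord they were at 15.1 and 27.5 CPM and at 37.9 and 37.5 CPM. Over both stages the difference of the ratio was 1.18 on the log2 scale (SE 0.31, adjusted p = 0.172). With only replicates 1 and 2 of stage 46 it was 2.05 (SE 0.40, adjusted p = 0.0246), where 1.15% of all pairs were called.

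Of the Hox cofactors, the TALE homeodomain proteins that bind DNA together with Hox proteins, 13 rows of meis, pbx and pknox genes were tested. The hindbrain was higher than the midbrain for 4 of them and lower for none, where 0.548% and 0.273% of all genes were called (median log2 fold change -0.03, all genes 0.16). These were meis1.L, meis2.S, meis3.L and meis3.S, and meis3.L was at 217, 275 and 134 CPM in the hindbrain against 27.2, 28.2 and 26.2 CPM in the midbrain (log2 fold change 3.01, SE 0.27). None was called between cord and hindbrain. Of 41 rows of regulators of hox genes and of hindbrain segments, 1 was lower in the hindbrain than in the midbrain, otx2.L, which marks the forebrain and midbrain (107, 97.1 and 101 CPM against 6.36, 11.3 and 5.43 CPM), and none was higher (median 0.47). Between cord and hindbrain 4 were higher and 2 lower, where 0.658% and 0.415% of all genes were called (median 0.47, all genes -0.06), and 9 and 3 of 36 without the replicate 3 libraries (2.39% and 1.28%). The higher rows held aldh1a2.L, which makes the hox inducer retinoic acid, at 343, 292 and 204 CPM in the cord against 14.5, 13.98 and 12.05 CPM, and cyp26a1.L, which breaks it down, at 46.7, 32.6 and 34.8 CPM against 2.30, 0.495 and 2.36 CPM.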

How the data were processed

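Gene counts were read from the table as deposited by the authors, who aligned single-end reads of amplified total RNA to the X. laevis v9.2 genome with STAR 2.5.2a and counted reads per gene with HTSeq 0.11.1; the handling of reads with several matches and of strand is not given in the sources used here. All 30 count columns were matched to samples by their labels. Levels are CPM scaled by TMM over all 30 libraries and not per transcript length.

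Regions were compared with edgeR 4.0.16 (quasi-likelihood F test, robust; low rows removed by filterByExpr at 10 counts a library and 15 in total) in R 4.3.3, over 12 libraries at stage 46, 8 at stage 49 and 20 for both stages. Calls between regions and between stages required a fold change beyond 2 on the log2 scale and a Benjamini-Hochberg adjusted p under 0.05. For the difference between the regions across stages and for the copy ratio between regions the adjusted p alone was used. The .L and .S rows were compared with limma 3.58.1. DESeq2 1.42.0, other filters, scalings and sample sets, a replicate block and each library left out were the alternatives. Scripts were tested on simulated data.

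Named were the member of each paralogue number with the highest mean level at stage 46, members with a forebrain limit, members against the order, called copy pairs and the called members of the stage comparison. Members and lists were chosen with earlier results of these data known. Replicate numbers are shared by the groups in the labels, and deviations from the group means were compared between same-numbered libraries. At stage 46 forebrain, hindbrain and cord correlated with each other in each of 3 pairs (0.43 to 0.85), and the midbrain did not (-0.02 to 0.03). Replicate 3 of forebrain, hindbrain and cord was the library with many genes detected, so the correlation cannot tell shared animals from that property. The block over 12 libraries also held the midbrain, whose numbers did not pair. Fits with a block are therefore given only as alternatives. Depth limits the low rows: where a group had no count, folds were set against a floor of 3 counts over the group. Some items are not reported here.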

Additional observations from a re-analysis of the deposited data

Results flagged for a closer look

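Midbrain libraries of stages 55 and 66, which entered no comparison between regions, held some hox rows above 3 counts, the limit that a count of 0 allows, in at least 2 of the 3 libraries of stage 55 or in the 1 of stage 66. At stage 55 hoxb3.L had 11 counts, hoxb3.S 10 and hoxd10.S 9 over 3 libraries. Summed over the 3 libraries 15 rows were above 3 counts at stage 55, hoxd3.S among them with 14 (3, 10 and 1), which passed the limit in 1 library only, and 6 rows at stage 61. In the single stage 66 library hoxa2.S had 4 counts, hoxb4.L 4, hoxa7.L 11, hoxa11.S 5, hoxa13.L 4 and hoxc13.S 6. These rows were of both low and high paralogue numbers, and no difference was tested.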

How the results depend on the processing

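Calls in the cord against the hindbrain at stage 46 (6 rows) depended most on the libraries and the fit. They were 14 with the replicate block over all 12 libraries, 19 with the block and only hindbrain and cord, 12 with only the regions compared, 10 with the samples of both stages, 23 with an indicator of the 3 libraries with many genes detected, 30 without replicate 3 of forebrain, hindbrain and cord, 3 by DESeq2 and 2 to 19 with 1 library left out. Hindbrain against midbrain (13 rows) gave 21 without those 3 libraries, 23 by DESeq2, 17 with the block and 7 to 22 with 1 library left out. Midbrain against forebrain (1 row) gave 2 without a filter and 2 with the block, 0 with only the regions compared and 0 with both stages, 10 by DESeq2 and 0 to 2 with 1 library left out. Cord against forebrain (16 rows) gave 30 with the block and 21 with the block and only those regions, and hindbrain against forebrain (8 rows) gave 8 and 6. Spearman's rho at stage 46 (0.74) was 0.84 without the 3 libraries and 0.72 to 0.82 with 1 left out. Which of these differences come from the number of genes detected was not tested. Where no share of all genes is given in the Results, the counts show only how calls vary with the fit. They are not read as results about hox rows.

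At stage 49, cord against hindbrain gave 4 rows with only these regions and 0 to 4 with 1 library left out, hindbrain against midbrain 2 by DESeq2 and 0 to 48, midbrain against forebrain 0 to 47, and rho 0.29 to 0.56. A group left with 1 library was assumed to vary like the others. Between the stages the hindbrain gave 20 rows with the block, 27 without the 3 libraries and 0 to 14 with 1 left out; the cord gave 1, 3 and 0 to 1; the difference between them gave 20 without the 3 libraries and 0 to 2. Stage 49 numbers did not pair (r -0.53 to 0.36), and the block gave no call there. Copy pairs called (5) were 3 where both rows had to pass the filter, 3 with only replicates 1 and 2 of stage 46 and 5 with any library left out; pairs differing between regions (0) were 1 with those replicates and 0 to 1.

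The front limit at 10% of the highest region mean lay at the forebrain for 2 and the hindbrain for 28 rows at stage 46. The fits with 1 library left out used the rule of 1 CPM in every library, at both stages. At stage 46 they gave 0 rows at the forebrain, 18 to 24 at the hindbrain and 27 to 33 at the cord. At stage 49 forebrain limits were 15 at 0.5 CPM, 1 at 2 CPM, 33 by medians, 42 by the 10% rule and 6 to 44 with 1 library left out. Hindbrain limits were 18 by medians, 11 by the 10% rule and 5 to 44. Cord limits were 1 at 0.5 CPM, 11 at 2 CPM, 0 by medians, 0 by the 10% rule and 1 to 2. Without TMM the stage 49 sums of numbers 1 to 5 were 189 CPM in forebrain, 324 in hindbrain and 470.4 in cord, and those of numbers 6 to 13 were 171, 182 and 467. Of the single rows and pairs called in the main fit, 417 values kept their side of the threshold, 69 fell below it and none changed sign. Of the counts of rows or pairs, the sums and the rho values, 278 stayed within a set margin of the main fit and 78 moved beyond it.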
